A study of Mus musculus with 17 samples.

Results

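The genes described here encode the parts of the basement membrane and the integrins that bind it. They were chosen by name, as the protein-coding genes for laminin chains, collagen IV chains, integrin α and β chains, nidogens, perlecan (Hspg2), agrin (Agrn), Sparc, fibronectin (Fn1), vitronectin (Vtn) and dystroglycan (Dag1). The rule gave 51 of the 47729 genes counted: 11 laminin chains, 6 collagen IV chains, 18 integrin α chains, 8 integrin β chains and 8 others. The rule itself used no expression value, though it was set with earlier results of these data known.

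A basement membrane is a thin sheet of matrix under epithelia. Laminins are trimers of 1 α, 1 β and 1 γ chain that polymerise on the cell surface, collagen IV trimers form a covalent network below them, and nidogen, perlecan and agrin tie both together. Integrins, each a dimer of 1 α and 1 β chain, and dystroglycan anchor the sheet to the cell. In the early mouse embryo a basement membrane forms between the epiblast and the primitive endoderm, and laminin signalling through β1 integrin is known to support polarity of the epiblast.

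Polyadenylated RNA of mouse embryonic stem (ES) cells was sequenced, with LIF (leukaemia inhibitory factor) in every medium. L2i held 3 uM CHIR99021, which activates the Wnt pathway by inhibiting GSK3, and 0.1 uM PD325901, a MEK inhibitor. LIM held 0.1 uM PD325901 and 2 uM IWP2, which blocks Wnt secretion. LFAI held 12 ng/ml FGF2, 20 ng/ml Activin A and 2 uM IWP2. One set sampled both lines, R1 and CGR8, once in each of 4 groups (n = 2): L2i, LIM after 4 (R1) and 6 (CGR8) passages in LIM, LFAI after 35 h and LFAI after 4 days. The dishes of these 8 libraries were coated with 0.1% gelatin and Cultrex basement membrane extract diluted 1 in 200. The other set held 9 single R1 libraries: L2i at day 0, then LIM and LFAI at days 1 to 4, on gelatin with fetal calf serum. Passages in 2i before sampling were 10 and 8 (L2i), 5 and 5 (LIM), 9 and 7 (LFAI at 35 h) and 3 and 9 (LFAI at 4 days), so medium and passage history differ together between these groups. Sequencing protocol and coating both differ between the sets, and their effects cannot be told apart.

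Counts assigned to genes ranged from 12889029 to 22593805 per library. The library labelled LFAI day 1 stood with the LIM libraries of the time course. Over 11414 genes its median absolute log2 difference from LIM day 1 was 0.104, the second smallest of 36 pairs, and 0.315% of these genes differed by over 2-fold. Its Dusp6, a target of ERK signalling, was at 9.22 CPM (gene counts per 1000000, scaled by library), against 9.70 in LIM day 1 and 77.4 in LFAI day 2. Time course counts of genes past 2-fold below therefore compare day 0 with day 4, and were computed with and without that library. The summed level of 7 ES cell markers was 5668 to 6686 CPM in L2i and 2220 to 2399 CPM after 4 days in LFAI. At 4 days 5 of the 7 were called lower than in L2i, with the naive-state genes Zfp42 and Esrrb at 4.44 to 12.5 CPM, while Pou5f1 (Oct4) stood at 1810 and 1926 CPM. In bulk samples, fewer cells that express a gene and less RNA of it per cell cannot be told apart.

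Of the 51 genes, 40 had enough counts to be tested and 29 were called in at least 1 of 6 comparisons (edgeR quasi-likelihood test, Benjamini-Hochberg adjusted p under 0.05 over 15525 genes). The 11 genes left out by the filter on low counts reached at most 0.719 CPM in any library of the set with both lines. They were Col4a3, Col4a4, Col4a6, Lama2, Lamc3, Vtn, Itga2, Itga11, Itgad, Itgax and Itgb6. Among them are Col4a3 and Col4a4, which join Col4a5 in the collagen IV of the mature kidney filter, the muscle laminin chain Lama2 and α chains of leukocyte integrins. A further 11 were tested and called nowhere, among them Hspg2, Agrn, Itga5 and Itgb5. All 81 calls had the same direction in R1 and in CGR8. The calling itself favours this, since lines that disagree widen the spread.

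Passaged LIM cells had 8 of 40 genes higher and 2 lower than L2i cells, where 11.3% and 7.81% of all tested genes were called in those directions. The median log2 fold of the 40 was 0.29, and 0.01 over all tested genes. LFAI at 35 h had 1 higher and 2 lower than L2i (all genes, 7.35% and 7.16%), with a median of -0.23 against -0.00. LFAI at 4 days had 8 higher and 13 lower than L2i (all genes, 21.5% and 23.3%), with a median of 0.02 against -0.00. Against LIM, LFAI at 4 days had 2 higher and 16 lower (all genes, 12.3% and 17.2%), and the medians were -0.99 and -0.02. Against LFAI at 35 h, LFAI at 4 days had 11 higher and 11 lower (all genes, 17.7% and 19.0%), with medians of -0.19 and 0.01. LFAI at 35 h had 0 higher and 7 lower than LIM (all genes, 1.92% and 4.46%), with medians of -0.52 and -0.01. At an unadjusted p under 0.05, 0 of the 40 were higher at 35 h than in LIM with edgeR, and DESeq2 called 0 higher as well. With the cell line as a block, 5 were lower at 35 h than in L2i. The comparisons share groups, so their counts are not independent.

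Some counts turned on 1 library. Without either L2i library 5 genes were higher in LIM than in L2i, and 0 were lower without either L2i library or CGR8 LIM (1 without R1 LIM). For 35 h against L2i the lower genes were 1 without R1 L2i or R1 at 35 h and 4 without either LIM library. For 4 days against L2i 5 were higher without R1 at 4 days. For 4 days against LIM 0 were higher without CGR8 LIM or R1 at 4 days, and 9 lower without CGR8 at 4 days. For 4 days against 35 h 6 were higher without R1 at 35 h and 5 without R1 at 4 days, and 6 lower without CGR8 at 4 days. For 35 h against LIM 4 were lower without R1 LIM, 2 without R1 at 35 h and 3 without CGR8 at 35 h. In each of these fits a smaller share of all genes was called too, for example 5.72% higher in LIM without R1 L2i.

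By class, the genes higher in LIM than in L2i were 2 of 3 tested collagen IV chains, 2 of 9 laminin chains and 4 of 21 integrin chains, and both lower genes were among the 7 tested others. After 4 days in LFAI the 13 lower genes were 3 laminin chains, 7 integrin chains and 3 others. The 8 higher were 2 collagen IV chains, 3 laminin chains and 3 integrin chains. Over all tested genes 11.3% were called higher and 7.81% lower in LIM, and 21.5% and 23.3% at 4 days. No class was tested against these shares. At 35 h in LFAI edgeR called 0 of 9 laminin chains and 0 of 3 collagen IV chains against L2i. At an unadjusted p under 0.05 there were 4 lower laminin chains and 1 higher collagen IV chain, and DESeq2 called 2 and 1.

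**Figure D1:**
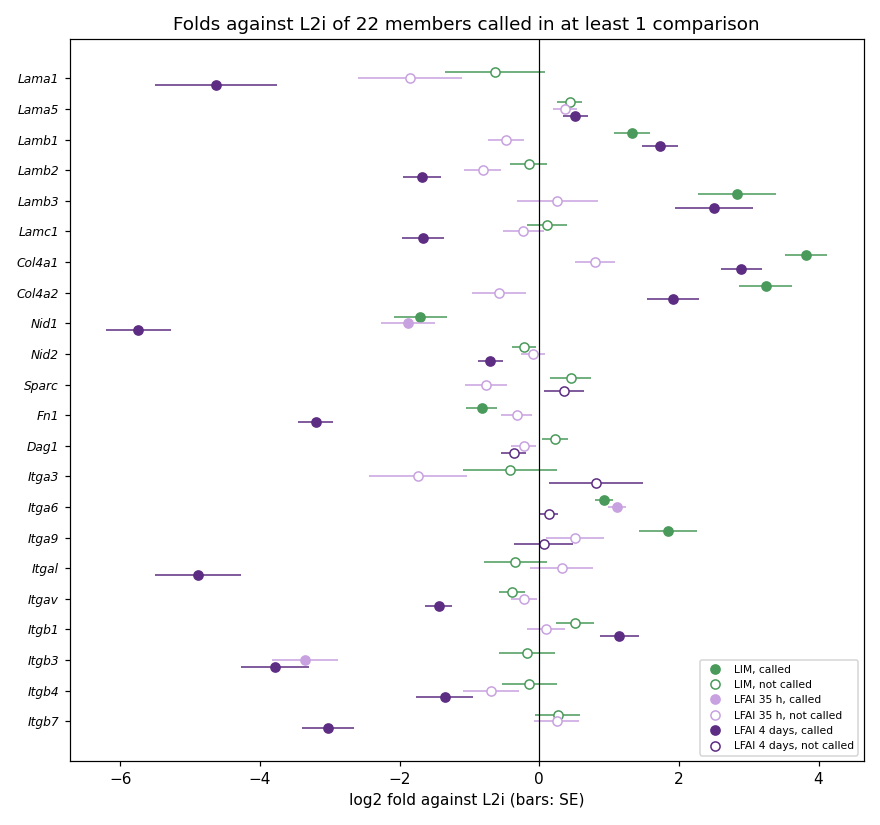
Log2 fold against L2i (x axis, bars show the standard error) for 22 genes called in at least 1 of the 6 comparisons and reaching 5 CPM. Green, light purple and dark purple stand for LIM, LFAI at 35 h and LFAI at 4 days, and filled points passed the adjusted p of 0.05. Col4a1 and Col4a2 lie to the right in LIM and at 4 days, Nid1 lies to the left in each medium, and most filled points left of 0 belong to LFAI at 4 days. Itgb8 is not drawn because it had 0 counts in L2i.

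Collagen IV was the class with the largest rise in LIM. Col4a1 and Col4a2 encode the chains of the collagen IV trimer found in nearly all basement membranes. They lie head to head on chromosome 8 (GRCm38; Col4a1 at 11198423 to 11312826 on the minus strand, Col4a2 at 11312805 to 11449287 on the plus strand), and their annotated first exons overlap by 22 bases. The 30 bases around both starts are shown because one stretch holds both. The sequence is chr8:11312801-11312830 on the plus strand (RefSeq, GRCm38.p6), with the overlap of both first exons in capitals.
Col4a1/Col4a2 starts: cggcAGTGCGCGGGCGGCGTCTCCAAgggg

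Col4a1 stood at 10.3 (R1) and 7.17 (CGR8) CPM in L2i, 126 and 123 in LIM, 12.1 and 18.6 in LFAI at 35 h and 79.1 and 51.4 at 4 days. The 4 groups were ordered alike in both lines, with L2i lowest and LIM highest. Col4a1 rose 14.2-fold from L2i to LIM (log2 fold 3.82 ± 0.30 (SE), adjusted p = 0.00021) and 7.42-fold from L2i to LFAI at 4 days (2.89 ± 0.29, adjusted p = 0.00011). Its difference at 35 h from L2i was 0.80 ± 0.29 (adjusted p = 0.097). Col4a2 stood at 6.20 and 3.98 CPM in L2i, 57.8 and 39.5 in LIM, 2.41 and 4.48 at 35 h and 23.4 and 15.3 at 4 days. It rose by a log2 fold of 3.24 ± 0.38 in LIM (adjusted p = 0.001) and 1.91 ± 0.37 at 4 days (adjusted p = 0.0032), and its 35 h values overlapped those of L2i. From LIM to LFAI at 35 h both differed in the other direction, by -3.02 ± 0.29 for Col4a1 and -3.81 ± 0.40 for Col4a2 (adjusted p = 0.0017 and 0.0024). LFAI at 4 days was below LIM for both (-0.93 ± 0.27 and -1.33 ± 0.35, adjusted p = 0.03 and 0.022). Those 2 calls against LIM were lost without R1 LIM or without CGR8 LFAI at 4 days (Col4a1 adjusted p = 0.0939 and 0.178, Col4a2 0.121 and 0.144), and for Col4a1 also without CGR8 LIM (0.091).

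Per length, the summed level of the 6 collagen IV genes was 2.08 ± 0.66 RPKM (CPM per kilobase of exons, mean ± SD, n = 2) in L2i, 24.3 ± 2.37 in LIM, 2.67 ± 0.82 at 35 h and 12.1 ± 3.79 at 4 days. Col4a1 held 56.7% ± 3.7 of that sum in L2i, 69.0% ± 5.3 in LIM, 77.1% at 35 h and 72.1% at 4 days. Col4a5, an X-linked chain of other trimers, ranged from 0.332 to 4.28 CPM over the 8 libraries and was called in no comparison.

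Markers of other cells were read beside these collagens, and their lists moved in different ways. The 14-gene list for primitive and parietal endoderm, tissues that lay down collagen IV in the embryo, summed to 13.2 to 16.7 CPM in L2i, 31.3 to 49.4 in LIM, 12.8 to 13.3 at 35 h and 21.6 to 31.6 at 4 days. In LIM the median log2 fold of its 10 tested genes against L2i was 1.89, and 0.01 over all tested genes. Of these 10, 2 were called higher with edgeR (3 with DESeq2, 6 at an unadjusted p under 0.05), and 0 lower with either tool or at that p. One of them, the parathyroid hormone receptor Pth1r, went from 0.322 and 0.133 CPM in L2i to 18.7 and 7.61 in LIM. The other, the endocytic adaptor Dab2, went from 0.965 and 1.13 to 7.20 and 3.92 CPM. At 4 days 2 of the 10 tested genes were called higher and 2 lower than in L2i with edgeR. Of the defining endoderm markers, named here after their values were seen, Gata4 stood at 1.79 and 0.930 CPM in L2i and 7.01 and 5.05 in LIM (log2 fold 2.12 ± 0.73, adjusted p = 0.076). Gata6 and Sox17 reached at most 0.261 and 0.315 CPM, and Ttr had 0 counts in every library. The 10-gene fibroblast and feeder list summed to 9.01 to 10.0 CPM in L2i, 38.8 in both LIM libraries, 14.2 to 15.9 at 35 h and 49.4 to 64.1 at 4 days. Of its 7 tested genes, edgeR called 3 higher in LIM than in L2i (5 with DESeq2, 6 at an unadjusted p under 0.05). At 4 days 6 were higher than in L2i by each of these. In both groups 0 were lower with edgeR, with DESeq2 or at an unadjusted p under 0.05. The median log2 folds of the 7 genes against L2i were 2.51 in LIM and 2.50 at 4 days. Fbn1, fibrillin-1, went from 0.919 and 1.86 CPM in L2i to 9.39 and 6.18 in LIM and 30.0 and 18.7 at 4 days, while Col3a1, Postn and Lum were at or under 0.252 CPM. The trophoblast list summed to 119 to 128 CPM in L2i, 138 to 179 in LIM, 31.9 to 37.5 at 35 h and 131 to 381 at 4 days. The endothelial list summed to 164 to 175, 89.4 to 138, 67.0 to 104 and 8.12 to 8.43 CPM in the same order. Pecam1, which ES cells express, was its most abundant gene in the first 3 groups (159 and 128 CPM in L2i), and Tek at 4 days (5.60 and 6.01 CPM). Sums of the 5 blood genes were 5.51 to 12.3 CPM over the 8 libraries. Their part in the collagen and laminin results was not tested.

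**Figure D2:**
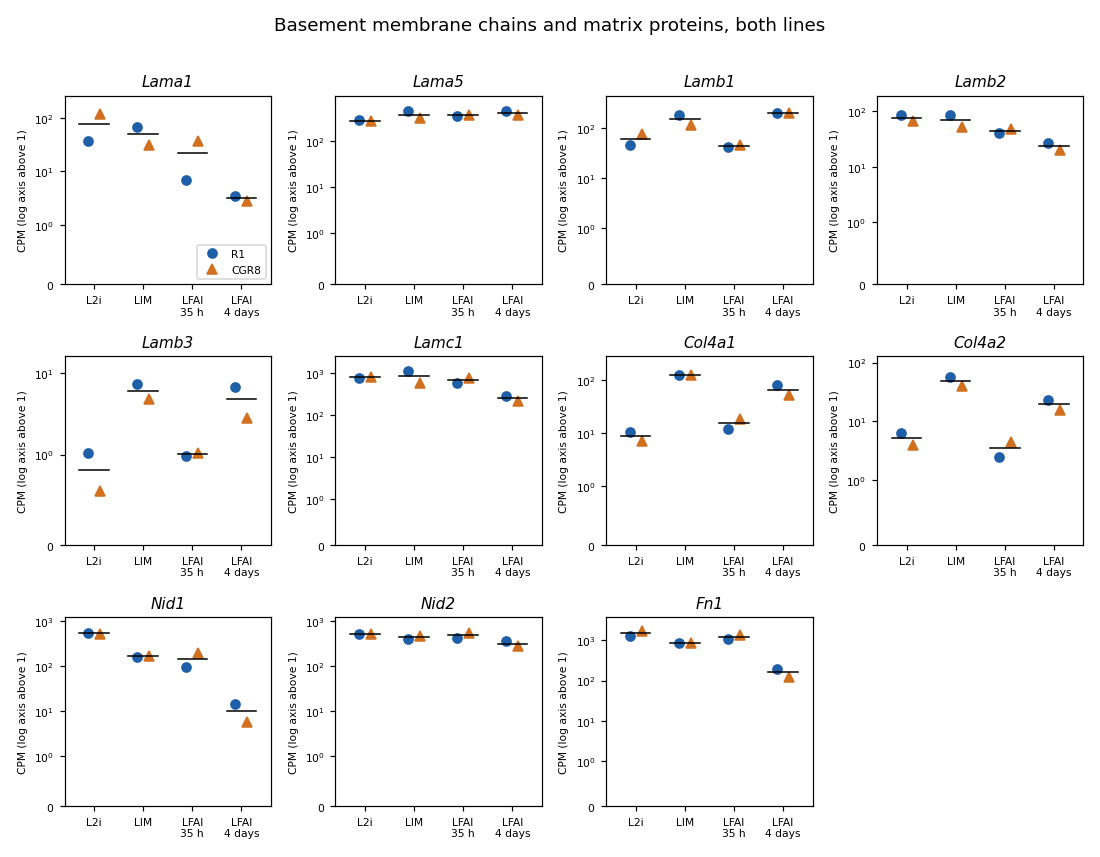
CPM (y axis, linear below 1 and logarithmic above) of 11 matrix genes in the 4 groups, with circles for R1, triangles for CGR8 and a line at the mean of both. Col4a1, Col4a2 and Lamb3 are high in LIM and in LFAI at 4 days, Lamb1 likewise, while Nid1, Fn1, Lamc1 and Lama1 are lowest at 4 days.

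Among laminin α chains, Lama5 was the main one in every group and Lama1 was lost over 4 days in LFAI. Lama5 encodes the α5 chain, common in epithelia, and Lama1 the α1 chain of the first laminin of the embryo. Lama5 stood at 279 and 273 CPM in L2i, 439 and 308 in LIM, 344 and 369.7 at 35 h and 434 and 356 at 4 days. All values outside L2i were above both L2i values, and the call was for 4 days (log2 fold 0.52 ± 0.18, adjusted p = 0.041). That call was lost on leaving out any of 5 of the 8 libraries (both L2i, both 35 h and R1 at 4 days, adjusted p = 0.0504 to 0.2). Lama1 stood at 36.8 and 118 CPM in L2i, 68.4 and 31.3 in LIM, 6.91 and 36.0 at 35 h and 3.46 and 2.74 at 4 days. The lines differed widely in the first 3 groups and were close at 4 days, where both lay below every other library. Lama1 fell by 4.63 ± 0.88 on the log2 scale from L2i to 4 days (adjusted p = 0.0029), and by 3.58 without CGR8 L2i. It fell by 2.79 ± 0.84 from 35 h to 4 days (adjusted p = 0.03), a call lost without CGR8 at 35 h (-1.15, adjusted p = 0.289) or without either 4 day library (adjusted p = 0.113 and 0.149). Lama3, a chain of epithelial anchoring laminin, ranged from 1.76 to 12.9 CPM and was called in no comparison. Lama4 was at or under 2.07 CPM and was called between the LFAI times (2.35 ± 0.72 higher at 4 days, adjusted p = 0.032).

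Per length, Lama5 made up 74.0% ± 12.1 of laminin α RPKM in L2i, 84.8% ± 2.7 in LIM, 90.8% ± 4.6 at 35 h and 97.7% ± 0.5 at 4 days. Lama1 made up 23% ± 14.5, 12.8% ± 3.4, 6.1% ± 5.5 and 0.9%. The summed α chain level moved little: 33.2 RPKM in L2i, 38.8 in LIM, 34.6 at 35 h and 35.5 at 4 days.

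The β chains changed places. Lamb1 rose and Lamb2 fell over 4 days in LFAI, so the share of Lamb1 in β chain RPKM went from 32.8% ± 11.6 in L2i to 81.5% ± 4.2, and that of Lamb2 from 66.5% ± 11.3 to 15.6% ± 2.6. In LIM the shares were 55.9% ± 1.0 and 40.7% ± 1.2, and at 35 h 37.8% ± 1.0 and 60.9% ± 1.1. With the longest transcript as the length of a gene, the Lamb1 shares were 43.2%, 66.4%, 48.9% and 87.0% in L2i, LIM, 35 h and 4 days. That length puts Lamb1 close to Lamb2 at 35 h (48.9% and 49.7%), and it leaves the order of the 4 groups as it was. Lamb1 is the β chain of most early embryonic laminins, and Lamb2 is known from synapses and the kidney filter.

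Sequence before the starts of both genes is shown because they moved in opposite directions in the same libraries. Each is the part of the 250 bases before the RefSeq start (GRCm38.p6) that lies before any annotated exon, on the plus strand: chr12:31265043-31265233 for Lamb1 and chr9:108479612-108479735 for Lamb2. Capitals mark matches on either strand to a TATA box (TATAAA), a GC box (GGGCGG) or a CCAAT box (CCAAT).
Lamb1: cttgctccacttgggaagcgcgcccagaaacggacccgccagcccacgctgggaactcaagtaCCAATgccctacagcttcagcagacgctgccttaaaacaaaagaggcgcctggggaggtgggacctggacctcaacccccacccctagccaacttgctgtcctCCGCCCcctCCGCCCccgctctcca
Lamb2: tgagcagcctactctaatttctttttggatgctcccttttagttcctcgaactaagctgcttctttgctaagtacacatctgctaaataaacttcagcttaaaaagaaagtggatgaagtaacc

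The 59 bases just before the RefSeq start of Lamb1 (31265293) lie in annotated exons and are not shown. Lamb1 had a CCAAT box 187 bases before that start. It also had 2 GC boxes on the other strand, 84 and 75 bases before that start. The 124 bases of Lamb2 held none of these letters. Of 21262 protein-coding promoter windows of 250 bases, 11.63% held the TATA box, 42.62% the GC box and 35.37% the CCAAT box. How often the pattern of either gene occurs was not counted. Both printed stretches are shorter than those windows.

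Lamb1 stood at 46.3 and 74.8 CPM in L2i, 185 and 118 in LIM, 41.4 and 45.8 at 35 h and 199 and 202 at 4 days. The values at 35 h were below every value of the other groups, and those at 4 days above them. Lamb1 rose 3.32-fold from L2i to 4 days (log2 fold 1.73 ± 0.26, adjusted p = 0.00089) and 2.50-fold to LIM (1.32 ± 0.26, adjusted p = 0.0088). The rise in LIM was lost without R1 L2i (1.02, adjusted p = 0.0523) or R1 LIM (0.97, adjusted p = 0.0517). It was lower at 35 h than in LIM (-1.79 ± 0.26, adjusted p = 0.009), which was lost without R1 at 35 h (adjusted p = 0.054). Lamb2 stood at 85.9 and 65.4 CPM in L2i, 85.4 and 50.7 in LIM, 39.6 and 46.8 at 35 h and 27.0 and 20.3 at 4 days. Both 35 h values lay below those of L2i and LIM, and both 4 day values below those of 35 h. Lamb2 fell by 1.68 ± 0.27 on the log2 scale from L2i to 4 days (adjusted p = 0.0013) and was 1.53 ± 0.27 lower than in LIM (log2 fold -1.53, adjusted p = 0.0042). Its difference at 35 h (-0.81 ± 0.27, adjusted p = 0.076) passed with the cell line as a block (-0.77, adjusted p = 0.0363).

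Lamb3, the β chain of the laminin that anchors epidermis, was a minor chain that moved with collagen IV. It stood at 1.06 and 0.598 CPM in L2i, 7.26 and 4.76 in LIM, 0.978 and 1.04 at 35 h and 6.80 and 2.81 at 4 days. LIM and 4 day values were all above those of the other 2 groups. It rose by a log2 fold of 2.82 ± 0.56 in LIM and 2.50 ± 0.56 at 4 days (adjusted p = 0.0093 and 0.0065). Without CGR8 L2i the former was 2.49 (adjusted p = 0.0532), and without R1 at 4 days the latter was 1.74 (adjusted p = 0.0505). Its share of β chain RPKM was at most 4.03% in any library.

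**Figure D3:**
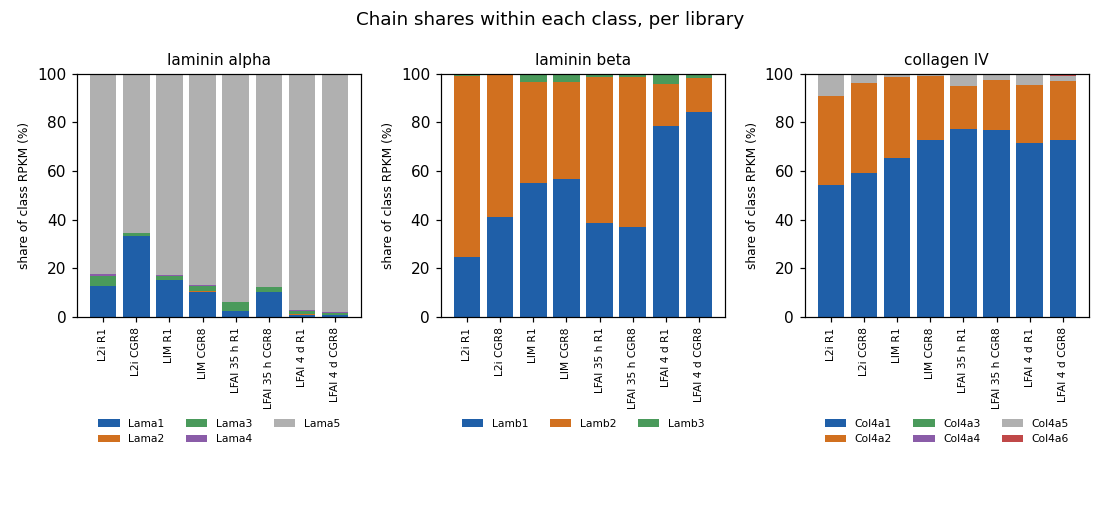
Share of each chain in the summed RPKM of its class (y axis, percent), 1 bar per library, for laminin α and β and for collagen IV. Lama5 and Col4a1 fill most of their classes in every library, and the Lamb1 part of the β bars is larger in LIM and largest in LFAI at 4 days.

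The main γ chain, Lamc1, which nearly all embryonic laminins share, fell after 4 days in LFAI. It stood at 771 and 838 CPM in L2i, 1162 and 578 in LIM, 594 and 779 at 35 h and 286 and 223 at 4 days. The 4 day values lay apart from all others, while LIM spanned both sides of L2i. Lamc1 fell by 1.66 ± 0.30 on the log2 scale from L2i to 4 days (adjusted p = 0.0023) and by 1.43 ± 0.30 from 35 h to 4 days (adjusted p = 0.0062). The latter was lost without CGR8 at 4 days (adjusted p = 0.0508).

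Of the linkers, Nid1 had the largest fall of the 40 tested genes from L2i to 4 days in LFAI, and Nid2 fell less. Both nidogens bind the laminin γ1 chain and collagen IV. Nid1 lies on chromosome 13 (13437551 to 13512269, plus strand), and the sequence before its start is shown because of that fall. It is chr13:13437352-13437550 on the plus strand, chosen and marked as for the laminins.
Nid1: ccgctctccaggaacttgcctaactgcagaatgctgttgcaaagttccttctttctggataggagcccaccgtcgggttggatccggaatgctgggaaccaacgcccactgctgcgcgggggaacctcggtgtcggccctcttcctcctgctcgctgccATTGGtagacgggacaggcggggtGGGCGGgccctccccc

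The 51 bases just before the RefSeq start of Nid1 (13437602) lie in annotated exons and are not shown. In the 199 bases shown, a CCAAT box lies 91 bases before that start on the other strand, and a GC box 67 bases before it. Lamb1, which rose, held matches to the same 2 boxes.

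Nid1 stood at 552 and 518 CPM in L2i, 159 and 169.9 in LIM, 95.4 and 195 at 35 h and 14.2 and 5.82 at 4 days. L2i was highest and 4 days lowest in both lines, with no overlap. Nid1 fell 53.5-fold from L2i to 4 days (log2 fold -5.74 ± 0.47, adjusted p = 3.7e-05), and by 6.51 on the log2 scale without R1 at 4 days. It fell by 1.70 ± 0.38 in LIM (adjusted p = 0.016) and by 1.88 ± 0.39 at 35 h (adjusted p = 0.014). The fall in LIM was lost on leaving out any 1 of the 4 libraries compared (-1.65 to -1.75, adjusted p = 0.0503 to 0.0884). At 35 h it was lost without R1 L2i (adjusted p = 0.0646) or R1 at 35 h (-1.45, adjusted p = 0.0742), and it was -2.48 without CGR8 at 35 h. Nid2 stood at 511 and 530.2 CPM in L2i and 358 and 283 at 4 days, a fall of 0.70 ± 0.17 on the log2 scale (adjusted p = 0.011). Without CGR8 at 4 days it was -0.54 (adjusted p = 0.0757). An exon of the abundant gene Rtraf overlaps 8.45% of the Nid2 exons on the opposite strand, and the strand setting of the counting is not given in the sources used here. Per length, the nidogens went from 77.1 (Nid1) and 100.6 (Nid2) RPKM in L2i to 1.44 and 62.0 at 4 days.

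The proteoglycans perlecan and agrin, which carry heparan sulfate, were called in no comparison. Hspg2 stood at 120.0 and 265 CPM in L2i, 418 and 239 in LIM, 141 and 313 at 35 h and 228 and 137 at 4 days. The lines moved in opposite directions between several of these groups, so their values overlap. Agrn ranged from 394 to 601 CPM over the 8 libraries.

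Fibronectin, a matrix protein bound by α5β1 and αv integrins, was the most abundant member in L2i per length (Fn1, 127.6 RPKM). It stood at 1306 and 1676 CPM in L2i, 841 and 842 in LIM, 1052 and 1331 at 35 h and 199 and 125 at 4 days. The 4 day libraries lay far below all others. Fn1 fell 9.21-fold from L2i to 4 days (log2 fold -3.20 ± 0.24, adjusted p = 2.8e-05) and 7.37-fold from 35 h to 4 days (-2.88 ± 0.24, adjusted p = 7.6e-05). Its fall in LIM, 0.83 ± 0.23 on the log2 scale (adjusted p = 0.035), was lost without any 1 of the 4 libraries compared (-0.64 to -0.99, adjusted p = 0.057 to 0.158). Sparc, a secreted protein that binds collagen IV, stood at 315 and 225 CPM in L2i, 425 and 314 in LIM, 125 and 194 at 35 h and 427 and 263 at 4 days. Its 35 h values were below all others. Sparc was higher at 4 days than at 35 h (1.12 ± 0.30, adjusted p = 0.018), a call lost without R1 at 35 h (0.80, adjusted p = 0.114) or R1 at 4 days (0.73, adjusted p = 0.121). Its call between LIM and 35 h (-1.21 ± 0.30, adjusted p = 0.047) was lost without any 1 of the 6 libraries of L2i, LIM and 35 h (adjusted p = 0.0529 to 0.218), with DESeq2 size factors, and when these 2 groups were fitted alone.

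Among the receptors, Itgb1 was the main β chain and was higher after 4 days in LFAI. It pairs with many α chains and forms the main laminin, collagen and fibronectin receptors. It stood at 219.7 and 143 CPM in L2i, 316 and 200.0 in LIM, 223 and 164 at 35 h and 447 and 357 at 4 days. Both 4 day values were above all others. Itgb1 rose by a log2 fold of 1.15 ± 0.28 from L2i to 4 days (adjusted p = 0.0093) and 1.06 ± 0.28 from 35 h to 4 days (adjusted p = 0.017). The call against L2i was lost without CGR8 L2i (0.86, adjusted p = 0.0596) or R1 at 4 days (0.99, adjusted p = 0.0543), and the latter without CGR8 at 35 h (adjusted p = 0.103) or R1 at 4 days (0.0901). With the cell line as a block, LIM was also above L2i (0.50, adjusted p = 0.0233) and 4 days above LIM (0.67, adjusted p = 0.00471), against adjusted p = 0.24 and 0.11 without it. Its share of β chain RPKM was 69.4% in L2i, 72.5% in LIM, 70.6% at 35 h and 86.6% at 4 days.

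Itgb3 and Itgb7 fell at different times. Itgb3, the partner of αv and of the platelet α chain, stood at 15.0 and 6.37 CPM in L2i, 8.45 and 10.5 in LIM, 0.978 and 1.1 at 35 h and 0.755 and 0.784 at 4 days. The drop was in place at 35 h. Itgb3 fell 10.2-fold by then (log2 fold -3.35 ± 0.47, adjusted p = 0.0027), and -2.59 without R1 L2i. The difference between 35 h and LIM (-3.18 ± 0.47, adjusted p = 0.009) was lost without either 35 h library (adjusted p = 0.0558 and 0.0534). Itgb7, the leukocyte β chain that pairs with α4 and αE, stood at 13.2 and 11.3 CPM in L2i, 12.1 and 17.3 in LIM, 15.9 and 13.4 at 35 h and 2.01 and 0.980 at 4 days. Its difference at 35 h did not pass (log2 fold 0.25 ± 0.32, adjusted p = 0.66) and it fell 9.69-fold from 35 h to 4 days (-3.28 ± 0.37, adjusted p = 0.00031). Without R1 at 4 days that value was -3.88.

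Itgb8, the αv partner known for activating latent TGF-β, was counted in LIM and at 4 days. It had 0 counts in both L2i libraries and both 35 h libraries, 38 counts in LIM (1.75 and 0.594 CPM) and 292 at 4 days (10.8 and 7.91 CPM). Against a floor of 3 counts over both libraries of the lower group, it was at least 14.2-fold higher in LIM than in L2i (adjusted p = 0.0101) and at least 115-fold higher at 4 days (adjusted p = 0.000505). Without R1 L2i the call in LIM was lost (adjusted p = 0.0509). From LIM to 4 days it rose by 2.99 ± 0.62 (adjusted p = 0.013), lost without CGR8 LIM (2.41, adjusted p = 0.0508) or either 4 day library (0.0716 and 0.0551). Itgb4, the partner of α6 in hemidesmosomes, stood at 7.35 and 9.30 CPM in L2i and 4.47 and 2.03 at 4 days (log2 fold -1.35 ± 0.41, adjusted p = 0.025). That call was lost without CGR8 L2i (-1.19, adjusted p = 0.0933) or CGR8 at 4 days (-0.90, adjusted p = 0.132). Itgb5, another αv partner, ranged from 37.0 to 64.7 CPM and was called nowhere.

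**Figure D4:**
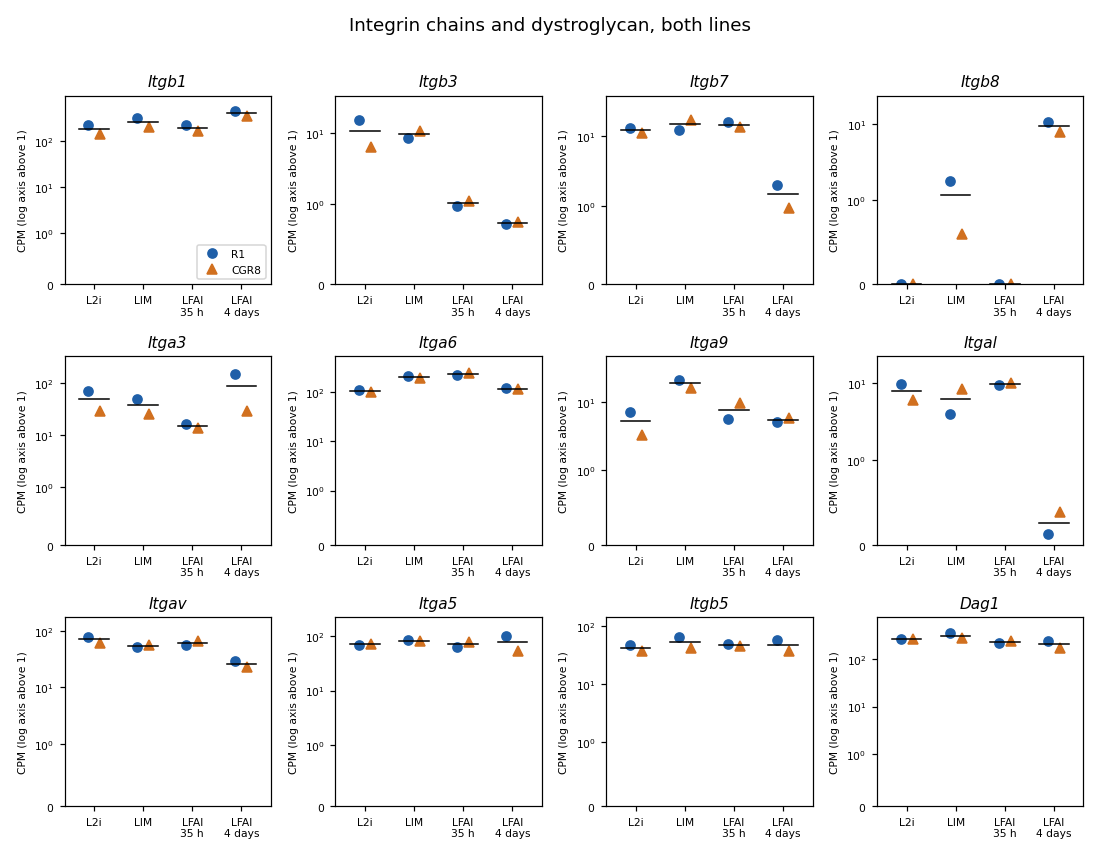
CPM (y axis, linear below 1 and logarithmic above) of 11 integrin chains and Dag1 in the 4 groups, with circles for R1, triangles for CGR8 and a line at the mean of both. Itga6 is highest in LIM and at 35 h, Itgb3 is low from 35 h on, Itgb7 and Itgal are low at 4 days, and Itgb8 lies at 0 in L2i and at 35 h.

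Itga6, the α chain of the laminin receptors α6β1 and α6β4, was raised in LIM and at 35 h and was back at 4 days. It stood at 113 and 101 CPM in L2i, 214 and 193 in LIM, 219 and 243 at 35 h and 120.4 and 116 at 4 days. L2i and 4 day values lay together, apart from those of LIM and 35 h. Itga6 rose by a log2 fold of 0.93 ± 0.13 in LIM (adjusted p = 0.0018) and 1.11 ± 0.13 at 35 h (adjusted p = 0.0011), and fell by 0.97 ± 0.13 from 35 h to 4 days (adjusted p = 0.00061). Between L2i and 4 days the difference was 0.14 ± 0.13 (adjusted p = 0.39). These calls held in each fit that left out a library. It was the 1 member called higher at 35 h than in L2i. Its share of α chain RPKM was 26.5% ± 2.4 in L2i, 40.1% ± 0.8 in LIM, 49.4% ± 0.7 at 35 h and 30.3% ± 13.3 at 4 days. With the longest transcript as the length of a gene, the shares were 38.1%, 53.7%, 62.4% and 42.9% in the same order. Per kilobase of exons Itga5 held more than Itga6 in L2i (32.2%) and at 4 days (32.6%). With the longest transcript Itga5 held less than Itga6 in both (24.6% and 25.0%).

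Itga3, the α chain of another laminin receptor, depended on the line at 4 days. It stood at 71.4 and 29.0 CPM in L2i, 49.8 and 25.4 in LIM, 16.6 and 13.6 at 35 h and 148 and 28.7 at 4 days. It was higher at 4 days than at 35 h (log2 fold 2.55 ± 0.72, adjusted p = 0.024), a call lost without R1 at 4 days (0.93, adjusted p = 0.243) or either 35 h library (adjusted p = 0.0788 and 0.109). Its difference between 35 h and L2i (-1.74 ± 0.71, adjusted p = 0.14) passed with the cell line as a block (-1.56, adjusted p = 0.0224). The ratio of 4 days to L2i was 2.07 in R1, and that of LFAI day 4 to day 0 in the R1 time course was 0.948.

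Of the fibronectin and vitronectin receptors, Itgav fell and Itga5 did not pass. Itgav stood at 80.6 and 63.1 CPM in L2i, 53.5 and 56.5 in LIM, 57.5 and 66.2 at 35 h and 30.1 and 22.9 at 4 days. The 4 day values were below all others (log2 fold against L2i -1.44 ± 0.19, adjusted p = 0.00044). Itga5 ranged from 53.8 to 98.7 CPM and held 27.1% to 32.6% of α chain RPKM in the 4 groups. With the longest transcript as its length it held 18.3% to 25.0%. Itga9, which binds tenascin and other ligands, stood at 7.35 and 3.25 CPM in L2i and 21.8 and 16.6 in LIM. It rose in LIM by a log2 fold of 1.84 ± 0.42 (adjusted p = 0.017), which was 2.56 without R1 L2i and was lost without CGR8 L2i (1.38, adjusted p = 0.0663) or R1 LIM (1.64, adjusted p = 0.0825).

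Of the α chains of leukocyte integrins, Itgal and Itgae fell at 4 days and Itga4 rose. Itgam was at or under 1.44 CPM and was called in no comparison, and Itgad and Itgax did not pass the filter. Itgal, the α chain of LFA-1, stood at 9.56 and 6.04 CPM in L2i, 3.94 and 8.38 in LIM, 9.46 and 10.1 at 35 h and 0.126 and 0.392 at 4 days. It fell 29.6-fold (log2 fold -4.89 ± 0.61, adjusted p = 0.00032), with -4.28 and -5.88 without R1 and without CGR8 at 4 days. Itgae, the partner of Itgb7, went from 3.63 and 3.59 to 0.692 and 0.523 CPM (-2.55 ± 0.50, adjusted p = 0.0035). The leukocyte marker Ptprc had 0 counts in L2i and LIM and reached at most 0.252 CPM elsewhere. Itga4, the α chain of VLA-4, had 0 counts in L2i and at 35 h, 23 in LIM and 71 at 4 days (2.33 and 2.22 CPM). It was at least 8.61-fold higher in LIM (adjusted p = 0.0209) and at least 27.9-fold higher at 4 days (adjusted p = 0.00245) than in L2i. Exons of Cerkl overlap 8.04% of its exons on the other strand.

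Dystroglycan, a laminin and perlecan receptor of another kind, stood at 272 and 276 CPM in L2i, 356 and 285 in LIM, 223 and 247 at 35 h and 250.2 and 175 at 4 days. Dag1 was called once, lower at 4 days than in LIM (log2 fold -0.59 ± 0.18, adjusted p = 0.039). That call was lost without R1 LIM (-0.44, adjusted p = 0.188), CGR8 at 4 days (-0.37, adjusted p = 0.211) or either L2i library (0.0542 and 0.0523), and when these 2 groups were fitted alone.

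Other genes of the same biology were read from 6 lists. Their counts stand against the shares of all tested genes called higher and lower than L2i, which were 11.3% and 7.81% in LIM, 7.35% and 7.16% at 35 h and 21.5% and 23.3% at 4 days. Of 19 tested genes for collagen and laminin processing, 6 were higher and 1 lower in LIM, 1 and 0 at 35 h (4 lower at an unadjusted p under 0.05, 0 with DESeq2), and 8 and 4 at 4 days, against L2i. Their median log2 folds were 0.47, 0.09 and 0.70. Pxdn, peroxidasin, which cross-links collagen IV, went from 1.70 and 1.99 CPM in L2i to 93.2 and 63.8 in LIM, 10.0 and 8.51 at 35 h and 156 and 136 at 4 days (log2 folds 5.41 ± 0.26, 2.33 ± 0.25 and 6.31 ± 0.26, adjusted p = 2.9e-05, 0.00083 and 3e-06). Serpinh1, a collagen chaperone, went from 37.2 and 24.2 to 156 and 88.6 CPM in LIM (1.99 ± 0.34, adjusted p = 0.0051). Of 16 other basement membrane proteins, 5 were higher and 3 lower in LIM, 2 and 4 at 35 h, and 4 and 5 at 4 days. Col18a1, collagen XVIII, rose in all 3 (1.20 ± 0.16, 1.47 ± 0.16 and 1.63 ± 0.16, adjusted p = 0.0018, 0.001 and 0.0001). Ntn1, the laminin-like netrin-1, fell in all 3, from 106 and 152 CPM in L2i to 0.503 and 0.784 at 4 days (-7.64 ± 0.54, adjusted p = 2e-05).

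Of 23 tested genes that link integrins to actin, 5 were higher and 0 lower in LIM (3 lower at an unadjusted p under 0.05, 2 with DESeq2), 1 and 1 at 35 h, and 9 and 7 at 4 days. Fermt1, kindlin-1, which binds β integrin tails, went from 0.0919 and 0.332 CPM in L2i to 36.4 and 23.7 at 4 days (7.21 ± 0.53, adjusted p = 2.3e-05). Zyx, zyxin of focal adhesions, went from 3.13 and 2.72 to 42.9 and 16.1 CPM in LIM and 87.8 and 69.5 at 4 days (3.32 ± 0.45 and 4.74 ± 0.47, adjusted p = 0.0019 and 0.0001). Of 16 other matrix receptors, 5 were higher and 1 lower in LIM, 2 and 3 at 35 h, and 10 and 2 at 4 days. The collagen receptors Ddr1 and Ddr2 went opposite ways by 4 days (3.90 ± 0.34 and -7.94 ± 0.62, adjusted p = 5e-05 and 3.1e-05). Of 20 matrix proteases and inhibitors, 7 were higher and 2 lower in LIM, 4 and 2 at 35 h, and 9 and 7 at 4 days, with Timp3 higher in all 3 (4.03 ± 0.26, 3.00 ± 0.25 and 3.97 ± 0.26, adjusted p = 9.4e-05, 0.00035 and 1.4e-05). Of 12 genes that glycosylate dystroglycan, 0 were higher and 1 lower in LIM, 0 and 0 at 35 h, and 4 and 0 at 4 days. In LIM 1 was higher at an unadjusted p under 0.05 and 1 with DESeq2, and at 4 days 1 was lower at that p and 0 with DESeq2. At 35 h 1 of those 12 was higher and 1 lower at an unadjusted p under 0.05 with edgeR, and DESeq2 called 0.

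The time courses had 1 library per point and no test. Of 38 genes above the level minimum, 7 were past 2-fold higher and 3 lower at LIM day 4 against day 0, where 8.17% and 7.22% of 15682 genes were. In LFAI 9 were higher and 12 lower at day 4 (all genes, 16.3% and 13.4%). The median log2 differences were 0.35 in LIM and -0.27 in LFAI, and 0.00 and -0.01 over all genes. All 4 counts stayed the same without the library labelled LFAI day 1. Both courses start from 1 day 0 library.

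In LIM, collagen IV climbed on each day. Col4a1 went from 16.6 CPM at day 0 (95% counting interval 14.5 to 18.9) through 61.2, 91.9 and 117 to 138 at day 4 (132 to 145), a log2 difference of 3.05. Col4a2 went from 8.18 through 19.1, 28.5 and 36.0 to 42.3 CPM. Itgb3 went from 10.2 to 32.9, 43.9, 47.6 and 43.1 CPM, and Itga6 from 158 to 272, 306, 307 and 320.2. The other members past 2-fold higher were Itga9, Itga4 and Lama4, and those lower included Itgam and Itga1. Of these, Itga4, Itgam and Itga1 rest on few counts, with log2 CPM (prior count 2) at or under 0.23 at day 0 and at LIM day 4. Lamb1 stood between 40.4 and 58.1 CPM, and its share of β chain RPKM was 26.7% at day 0 and 29.5% at day 4. Nid1 stood at 487 CPM at day 0, 654, 694, 648 and 525 on days 1 to 4, and Fn1 between 1898 and 2341 CPM. The passaged LIM libraries had Nid1 at 159 and 169.9 CPM, Fn1 at 841 and 842 and Lamb1 at 185 and 118. Time in LIM, coating and sequencing protocol cannot be told apart in that difference.

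In LFAI, Nid1, Fn1, Lamc1, Itgb3 and Lama1 were below day 0 at day 2 and lower again at day 3. The likeness of the library labelled LFAI day 1 to LIM also ends at day 2, so when these falls began cannot be told. Nid1 went from 487 CPM at day 0 and 654 in the library labelled day 1 to 95.4, 24.4 and 22.1 on days 2 to 4. Fn1 went from 1997 and 2239 to 1300.4, 727 and 519 CPM, Lamc1 from 923 and 1301 to 669.7, 326 and 316, and Itgb3 from 10.2 and 33.4 to 3.86, 0.938 and 1.14. Lama1 went from 73.8 and 51.2 to 15.9, 7.79 and 11.2 CPM. Lamb2 was at 67.4 CPM at day 0, 33.7 at day 2 and 36.2 and 35.5 after. Lamb1 rose, to 66.0 CPM on day 2, 137 on day 3 and 191 on day 4 (interval 183 to 198). The Lamb1 share of β chain RPKM was 26.7% at day 0, 54.3%, 69.3% and 75.7% on days 2 to 4. Col4a1 stood at 51.5, 39.4 and 62.7 CPM on these days, and Itgb1 at 405, 333 and 405 after 276 at day 0. Itga6 was at 296 CPM on day 2 and 158 and 159.9 on days 3 and 4, against 158 at day 0.

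**Figure D5:**
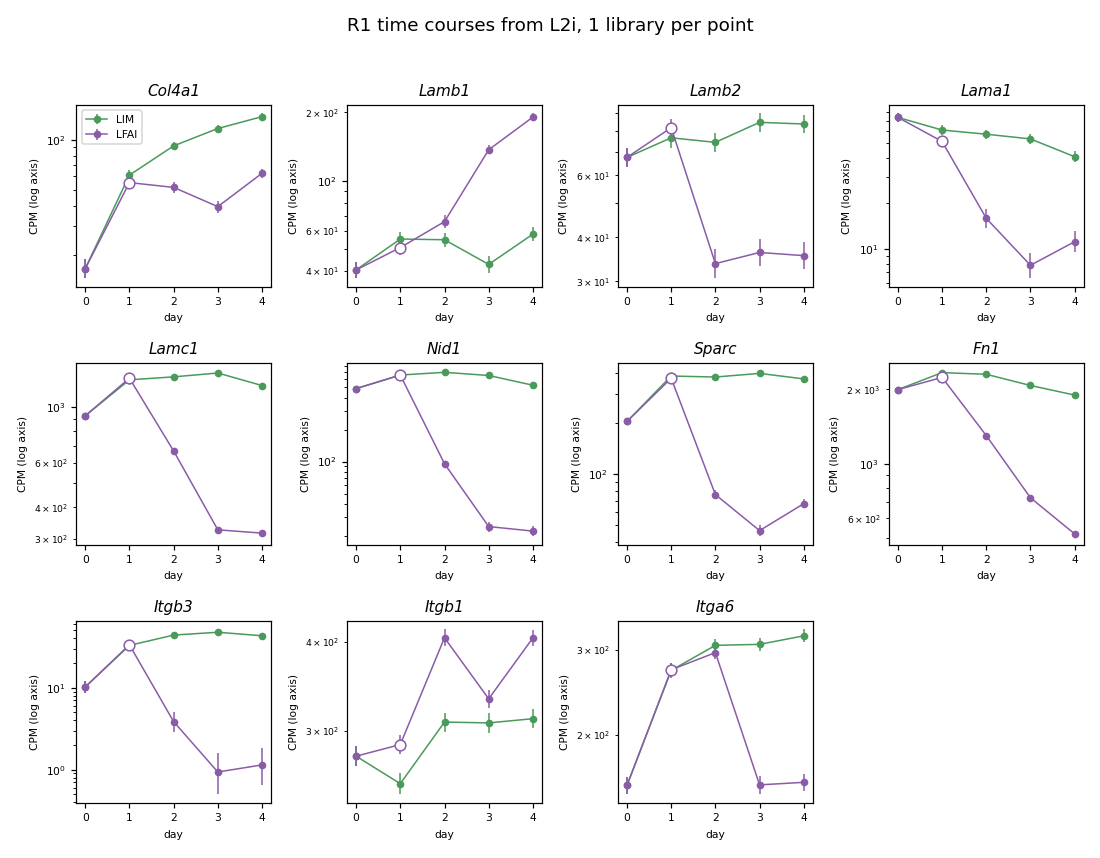
CPM (y axis, logarithmic) of 11 genes by day from the shared L2i library at day 0, in LIM (green) and LFAI (purple), 1 library per point, with bars for the 95% counting interval. The open point is the library labelled LFAI day 1, which lies near LIM day 1 in each panel. From day 2 on, the LFAI line lies below the LIM line for Nid1, Fn1, Lamc1, Lama1, Lamb2, Sparc and Itgb3, and above it for Lamb1 and Itgb1.

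Between the sets, several members differed widely at 4 days in LFAI, and those given here were chosen after their values were seen. Sparc was at 205 CPM at day 0 and 67.2 at LFAI day 4 of the time course, a ratio of 0.327, against ratios of 1.36 (R1) and 1.17 (CGR8) in the set with both lines. Agrn had a ratio of 0.484, against 1.36 and 0.954. Itgb7 and Itgal fell less in the time course. Their ratios there were 0.570 and 0.210, against 0.152 and 0.0868 for Itgb7 and 0.0132 and 0.0649 for Itgal. Itgb8 reached 0.858 CPM (12 counts) at LFAI day 4, against 10.8 and 7.91 CPM. Only R1 was sampled in the time course, and the coating and protocol differed, so these effects cannot be told apart.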

How the data were processed

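The authors deposited whole-number counts of reads per Ensembl gene for each of 17 libraries. Per the submitters' processing notes, HISAT2 2.0.4, HTSeq 0.6.1 and DESeq2 1.10.1 were used, with GRCm38; the strand setting is not given in the sources used here. Reads assigned to no gene (47.7 to 51.9%) were left out. Gene names and lengths came from GENCODE M21 (47310 of 47729 IDs matched), promoter sequences from RefSeq (34 of 51 members had one).

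All 8 two-line libraries were fitted together in edgeR 4.0.16 (R 4.3.3): filterByExpr, TMM scaling, quasi-likelihood test on group means with 4 residual degrees of freedom, two-sided, Benjamini-Hochberg adjustment over 15525 genes, called at 0.05. SE is the absolute log2 fold over the root of F. CPM are counts per 1000000 of TMM-scaled library size; RPKM divides them by the union of exons. With 1 library per line, p-values measure the spread between lines. The lines pair the libraries: differences between R1 and CGR8 correlated between groups at 0.041 to 0.395. On simulated counts for LIM against L2i (15051 genes), 99 genes were changed at each fold. The fit recovered 42.4% of 2-fold and 80.8% of 4-fold changes, and 3.94% of its calls were false. The data had 1750 genes called higher and 1212 lower in that comparison, so these rates need not hold there.

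The 9 time course libraries were scaled together and given as CPM with 95% exact Poisson intervals, which cover counting error only. Genes at 1 CPM or more in at least 1 library were kept, and differences use log2 CPM (prior count 2).

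The members, gene lists and tests were chosen with earlier results of these data known. All members may be named; those called in at least 1 comparison and reaching 5 CPM in a group mean (24) are given in full, except 1 that is not reported here but enters every count, and of each other list up to 3 called genes with the smallest p. Alternatives were DESeq2 size factors, no filter, DESeq2 1.42.0, the cell line as a block, only the 4 libraries compared, each library left out, other time course scaling, prior count or filter, and another gene length; leaving out the library labelled LFAI day 1 was chosen after seeing the data.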

Additional observations from a re-analysis of the deposited data

Results flagged for a closer look

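In 10 results the ratio between groups lay above 1 in one line and below 1 in the other. With 1 library per line and group, none of these differences was tested. For Hspg2 (perlecan) the ratio of LIM to L2i was 3.48 in R1 and 0.901 in CGR8, that of LFAI at 4 days to L2i 1.90 and 0.517, that of 4 days to 35 h 1.62 and 0.438, and that of 35 h to LIM 0.337 and 1.31. For Lama1 the ratio of LIM to L2i was 1.86 in R1 and 0.265 in CGR8. For Lamc1 it was 1.51 and 0.690, and the ratio of 35 h to LIM was 0.511 and 1.35. For Itgb3 the ratio of LIM to L2i was 0.564 and 1.65, and for Lama3 it was 0.625 and 2.01. For Itga5 the ratio of 4 days to 35 h was 1.61 and 0.696.

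Sparc differed between the sets. At LFAI day 4 of the time course its ratio to day 0 was 0.327, against 1.36 (R1) and 1.17 (CGR8) for LFAI at 4 days to L2i in the set with both lines. This difference was not tested either, since the time course has 1 library per point.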

How the results depend on the processing

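With DESeq2 size factors every count of called members kept within 1.5 times, and 143 of 144 folds of named members kept their call. For LFAI at 35 h against L2i, higher and lower members numbered 2 and 8 with no filter on low counts and 2 and 5 with DESeq2. There, the lower members numbered 5 with the cell line as a replicate block and 4 with the libraries compared alone. With no filter, higher members numbered 4 for LFAI at 4 days against LIM, and 1 higher and 13 lower were called for 35 h against LIM. The cause was not tested. The block added 6 calls, of which 4 are given beside their values, and changed no other call. DESeq2 added 8 calls and no filter added 19. No direction of a called fold reversed in any setting run.

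Leaving out each library in turn gave 5 to 8 members higher and 0 to 3 lower for LIM against L2i, 1 and 1 to 4 for 35 h against L2i, and 5 to 8 and 10 to 14 for 4 days against L2i. It gave 0 to 2 and 9 to 17 for 4 days against LIM, 5 to 12 and 6 to 12 for 4 days against 35 h, and 0 and 2 to 7 for 35 h against LIM. Of 1152 such folds of named members, 85 lost their call and 15 gained one. All time course counts stayed within 1.5 times in each setting run. With the longest transcript as gene length, 28 of 64 chain shares moved by more than the SD of the lines. With 2 libraries a group, changes near 2-fold can be missed, and genes under about 1 CPM rest on few counts.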
